A study of Mus musculus with 9 samples.

Results

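The mRNAs of the mitochondrial ribosomal proteins were followed in 9 mouse hearts. The members were all genes whose symbol reads Mrpl or Mrps, a number and at most 1 further letter. This rule found 77 of the 43154 genes listed, 48 of the large subunit (Mrpl) and 29 of the small subunit (Mrps). All 77 passed the filter on low values, which asked for 1 FPKM or more in any 2 hearts and left 13487 genes to test. FPKM counts fragments relative to transcript length and to sequencing depth, so levels can be set side by side between genes.

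The hearts came from C57BL/6 mice in 3 groups. Transgenic mice treated with JIB-04, a small molecule inhibitor of Jumonji histone demethylases, gave 2 hearts, collected at postnatal day 158 (heart 2) and day 125 (heart 1). Transgenic mice treated with vehicle gave 3 hearts, from day 158 (hearts 2 and 3) and day 125 (heart 1). Wild type mice treated with vehicle gave 4 hearts, from day 158 (hearts 3 and 4) and day 125 (hearts 1 and 2). Dosing began in mice 4 weeks old, with 3 doses per week, and JIB-04 was dosed at 50 mg/kg. Both transgenic groups carried a calcineurin transgene behind the α-myosin heavy chain promoter, which is active in cardiomyocytes. Calcineurin is a calcium-activated phosphatase whose activity makes the heart grow. JIB-04 in wild type mice was not analysed here, so an effect of the compound could be read only in transgenic hearts. The labels give each heart a mouse of its own.

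The mitochondrial ribosome translates the few mRNAs made from mitochondrial DNA, all of which encode hydrophobic core subunits of the respiratory chain and of ATP synthase. Its RNAs are transcribed in the mitochondrion, while its proteins are encoded in the nucleus, made in the cytosol and imported. Some of these proteins descend from bacterial ribosomal proteins and others exist in mitochondria only. Heart muscle is rich in mitochondria, and inherited defects of several of these proteins cause cardiomyopathy in humans.

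Some hearts stood apart. Ppp3ca, which encodes the calcineurin catalytic subunit, was at 1536 and 1434 FPKM in JIB-04 hearts and at 1762, 1706 and 199 FPKM in transgenic vehicle hearts, against 22.9, 23.4, 24.1 and 24.8 FPKM in wild type hearts. Transgenic vehicle heart 3 was thus far below the other transgenic hearts, though above every wild type heart. The same heart and JIB-04 heart 2 had the largest share of summed FPKM on the mitochondrial chromosome, 29.8% and 30.9%, against 10.004% to 26.3% in the other hearts. Both list mt-Atp6, mt-Atp8 and mt-Co3 at high levels, and each of these genes is at 0 in the other 7 hearts. Wild type heart 2, with the smallest share, lists mt-Co1 and mt-Co2 at 0, against 14582 to 32026 FPKM for mt-Co1 and 39320 to 111760 FPKM for mt-Co2 in the other 8 hearts. For the members as a whole, main results are also given without transgenic vehicle heart 3, JIB-04 heart 2 or both. Wild type heart 2 was left out only in runs that dropped 1 heart at a time. Fold changes and calls of the other gene lists, the ribosomal RNAs and the cell type markers are given with all hearts only. Relative depth, read from the spacing of the lowest values, spanned 1.0 to 1.51 with wild type heart 1 set to 1.0, and the read numbers themselves are not given in the sources used here.

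To show what lies at the start of members on which the results turn, promoter windows of 300 bases are printed for the large subunit members with the largest fall (Mrpl42) and the largest rise (Mrpl33) in transgenic vehicle hearts, and for the small subunit member with the highest level (Mrps21) and the one with the largest fall (Mrps11). The windows run 5′ to 3′ on the gene's strand, from upstream of the start into the transcript, and come from RefSeq on GRCm38.p6. Capitals mark the letters of motifs described further on. Mrpl42 lies at chr10:95501900-95502199 on the minus strand and Mrpl33 at chr5:31613701-31614000 on the plus strand. Mrps21 lies at chr3:95871465-95871764 on the minus strand and Mrps11 at chr7:78782881-78783180 on the plus strand.
Mrpl42: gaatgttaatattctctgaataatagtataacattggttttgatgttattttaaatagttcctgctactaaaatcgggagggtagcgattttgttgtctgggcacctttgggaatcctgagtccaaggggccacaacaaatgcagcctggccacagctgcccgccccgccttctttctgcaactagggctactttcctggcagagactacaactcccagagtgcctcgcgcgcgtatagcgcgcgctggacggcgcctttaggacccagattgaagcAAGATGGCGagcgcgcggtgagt
Mrpl33: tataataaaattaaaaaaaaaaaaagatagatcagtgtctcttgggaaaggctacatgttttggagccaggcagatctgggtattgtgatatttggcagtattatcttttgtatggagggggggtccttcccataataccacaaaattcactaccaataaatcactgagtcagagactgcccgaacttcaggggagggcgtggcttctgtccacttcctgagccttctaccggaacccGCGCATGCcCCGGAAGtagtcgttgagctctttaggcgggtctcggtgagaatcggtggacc
Mrps21: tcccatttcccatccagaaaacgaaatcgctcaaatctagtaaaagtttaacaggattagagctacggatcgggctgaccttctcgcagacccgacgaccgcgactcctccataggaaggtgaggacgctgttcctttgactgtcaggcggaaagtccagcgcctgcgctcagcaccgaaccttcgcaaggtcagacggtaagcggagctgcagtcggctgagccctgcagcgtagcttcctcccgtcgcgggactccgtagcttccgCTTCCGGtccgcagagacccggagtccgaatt
Mrps11: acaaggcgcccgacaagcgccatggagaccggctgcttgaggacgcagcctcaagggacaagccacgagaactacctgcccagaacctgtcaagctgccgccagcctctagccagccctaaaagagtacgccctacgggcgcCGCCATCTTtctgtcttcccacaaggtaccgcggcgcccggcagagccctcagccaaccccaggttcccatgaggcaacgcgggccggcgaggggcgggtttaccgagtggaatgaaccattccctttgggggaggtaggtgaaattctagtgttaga

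The first question was how the members stood in transgenic hearts under vehicle. By limma 36 of the 77 were called lower and 2 higher than in wild type. The summed level of the large subunit was 2847, 2688 and 2184 FPKM in transgenic vehicle hearts, against 3509, 3600, 2884 and 3132 FPKM in wild type hearts. For the small subunit it was 1612, 1494 and 1222 FPKM in transgenic vehicle hearts, against 2053, 2088, 1681 and 1824 FPKM in wild type hearts. In both subunits every transgenic vehicle heart lay below every wild type heart in these sums. As a share of the summed FPKM of nuclear genes the groups overlapped. The large subunit made up 0.589%, 0.539% and 0.456% in transgenic vehicle hearts, against 0.619%, 0.603%, 0.534% and 0.573% in wild type hearts. The small subunit made up 0.334%, 0.2995% and 0.255% in transgenic vehicle hearts, against 0.362%, 0.350%, 0.311% and 0.334% in wild type hearts. In bulk tissue, fewer cells of a type and less RNA per cell cannot be told apart.

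Fold changes are differences of log2(FPKM + 1), on which genes at low levels move less than their FPKM. They were fitted with limma over all genes with a term for day, and a gene was called at an adjusted p under 0.05. In the large subunit 21 of 48 members were called lower in transgenic vehicle hearts and 2 higher by limma. In the small subunit 15 of 29 were called lower and 0 higher by limma, with 0 higher also at an unadjusted p under 0.05. Over all genes tested, 15.7% were called lower and 20.3% higher. The median log2 fold change was -0.30 in the large subunit, -0.34 in the small subunit and 0.05 over all genes. The called falls ranged from -0.32 to -0.85 in the large and from -0.29 to -0.74 in the small subunit. All 3 transgenic vehicle hearts lay below all 4 wild type hearts in 25 large and 18 small subunit members, 43 of 77, while 17.7% of all genes did so. Without transgenic vehicle heart 3 the members called lower were 20 and 14, with 16.4% of all genes, and the median over the 77 members was -0.24.

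These counts depended on the scaling, on the days included and on single hearts. With every heart scaled to equal summed FPKM, the median of all genes moved to 0.23 and that of the members to -0.10, and 3 large and 2 small subunit members were called lower and 2 of each higher. Over all genes 7.48% were then called lower and 33.3% higher, so the members' share called lower, 6.49%, was not above that of all genes. Other scalings did not lower the count. The members called lower were 36 when scaled without mitochondrial and the 20 highest genes, 44 by median of ratios and 42 by quantile normalization. These were 46.8%, 57.1% and 54.5% of the members, beside 14.8%, 18.7% and 18.8% of all genes. In the day 158 hearts alone, 3 large and 1 small subunit members were called lower and 1 large subunit member higher, 5.19% and 1.3% of the members beside 4.02% and 5.31% of all genes. Without transgenic vehicle heart 1, 19 large and 9 small subunit members were called lower, with 10.3% of all genes.

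**Figure D1:**
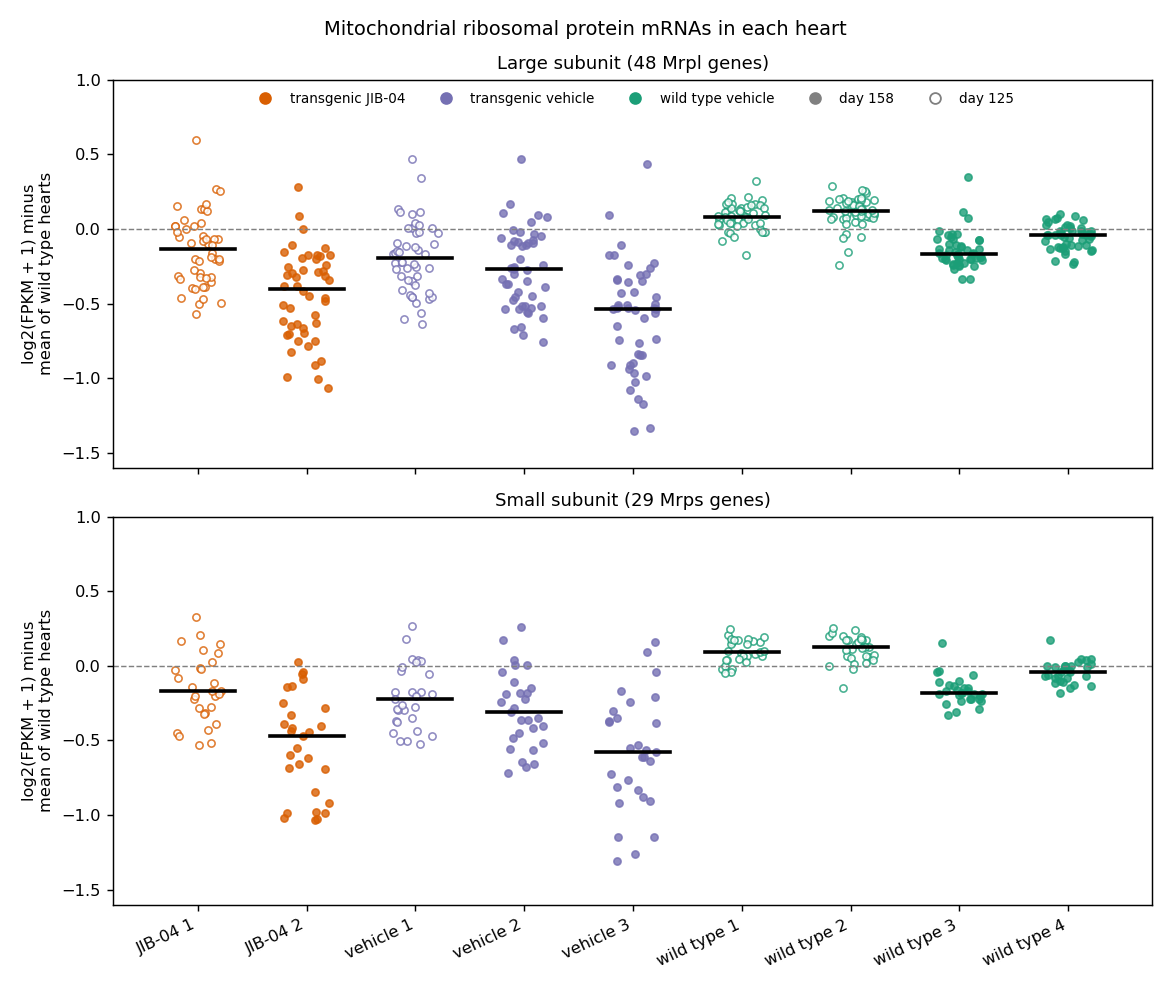
Difference of log2(FPKM + 1) of each member from its mean over the wild type hearts, in every heart; each point is a gene, bars are medians, colours are groups, and open points are hearts of day 125. The large subunit medians were -0.13 and -0.40 in JIB-04 hearts, -0.19, -0.27 and -0.53 in transgenic vehicle hearts, and between -0.17 and 0.12 in wild type hearts.

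Among the large subunit members, Mrpl42, a protein of mitochondrial ribosomes with no bacterial counterpart, fell most (chromosome 10, positions 95480806 to 95501927 in GRCm38). It was at 175, 161 and 106 FPKM in transgenic vehicle hearts, against 304, 313, 232 and 250.1 FPKM in wild type hearts. The groups did not overlap, and heart 3 was the lowest transgenic heart. On the log2 scale it changed by -0.85 ± 0.13 (SE; limma adjusted p = 0.0019).

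Mrpl30, the counterpart of bacterial L30, was the large subunit member with the smallest adjusted p (chromosome 1, positions 37890477 to 37898535). It was at 145, 128 and 108 FPKM in transgenic vehicle hearts, against 216, 233, 175 and 199 FPKM in wild type hearts. The highest transgenic heart thus lay below the lowest wild type heart. This was a log2 difference of -0.64 ± 0.08 (SE; limma adjusted p = 0.00088). Mrpl19, the counterpart of bacterial L19 at the interface of the subunits, had the lowest level of all members, 4.89 ± 1.29 FPKM in transgenic vehicle hearts (SD, n = 3) and 8.06 ± 1.57 FPKM in wild type hearts (SD, n = 4). It fell by 0.65 on the log2 scale, with limma adjusted p = 0.022. Its exons share bases with Gcfc2 on the other strand, and without wild type heart 3, at 10.4 FPKM against 7.06 to 7.46 in the other wild type hearts, the call was lost.

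Both large subunit members that rose have bacterial counterparts. Mrpl33, the counterpart of bacterial L33 (chromosome 5, positions 31596935 to 31701972), was at 322, 322 and 315 FPKM in transgenic vehicle hearts, against 247, 277, 201 and 212 FPKM in wild type hearts. It was the member with the highest level in transgenic vehicle hearts, whose values lay close together and above every wild type heart, as did 23.4% of all genes. It rose by 0.50 ± 0.09 on the log2 scale (SE), with limma adjusted p = 0.0035. Mrpl33 shares exon bases with Gm43809, a non-coding gene on the same strand, so part of its signal cannot be told apart from that gene. Its listed span also runs past the end of the gene in the GENCODE annotation, position 31664384. The printed window lies inside the span, not at its first position. Whether other transcripts in the span add to its level was not tested. Mrpl16, the counterpart of bacterial L16 near the site where tRNA enters, was at 69.0, 60.9 and 57.9 FPKM in transgenic vehicle hearts, against 58.0, 58.0, 49.1 and 52.0 FPKM in wild type hearts. These values overlapped, and its log2 fold change of 0.23 ± 0.06 (SE, limma adjusted p = 0.018) lost its call without transgenic vehicle heart 1 or wild type heart 3.

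The parts of the large subunit can be read separately. Of the 3 members of the stalk, 1 was called lower and all 3 were below 0, beside 15.7% and 44.4% of all genes. The stalk recruits translation factors to the ribosome. Mrpl12, the protein that carries this contact, was at 89.6, 86.1 and 54.2 FPKM in transgenic vehicle hearts, against 141, 135, 97.4 and 125 FPKM in wild type hearts. Every transgenic vehicle heart was below every wild type heart, and the log2 difference was -0.66 ± 0.15 (SE), with limma adjusted p = 0.012. Mrpl12 shares exon bases with the antisense gene Gm16755. Mrpl10, which anchors the stalk, and Mrpl11, at its base, had log2 fold changes of -0.22 and -0.23, with limma adjusted p = 0.20 and 0.084.

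In the central protuberance, which holds the structural RNA at the top of the subunit, 2 of 5 members were called lower. All 5 were below 0, with a median log2 fold change of -0.27. Mrpl18, whose bacterial counterpart binds 5S ribosomal RNA, was at 67.2, 64.8 and 47.9 FPKM in transgenic vehicle hearts, against 112, 109, 86.7 and 105 FPKM in wild type hearts. The groups did not overlap. Its log2 value differed by -0.73 ± 0.11 (SE), with limma adjusted p = 0.0020. Around the exit tunnel, through which the new protein leaves towards the inner membrane, 2 of 6 members were called lower. All 6 were below 0, and the median was -0.16. Mrpl22, whose bacterial counterpart lines the tunnel, differed by -0.05 ± 0.08 (SE), with limma adjusted p = 0.65.

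By descent, 14 of the 30 large subunit members with a bacterial counterpart were called lower and 2 higher, with a median of -0.32. Of the 18 found in mitochondria only, 7 were called lower and 0 higher, with a median of -0.26. In the small subunit 9 of 16 members with a bacterial counterpart and 6 of the 13 others were called lower, with medians of -0.38 and -0.34. No test of these differences between the lists was made. These lists and those further on were drawn up with results of these hearts known.

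**Figure D2:**
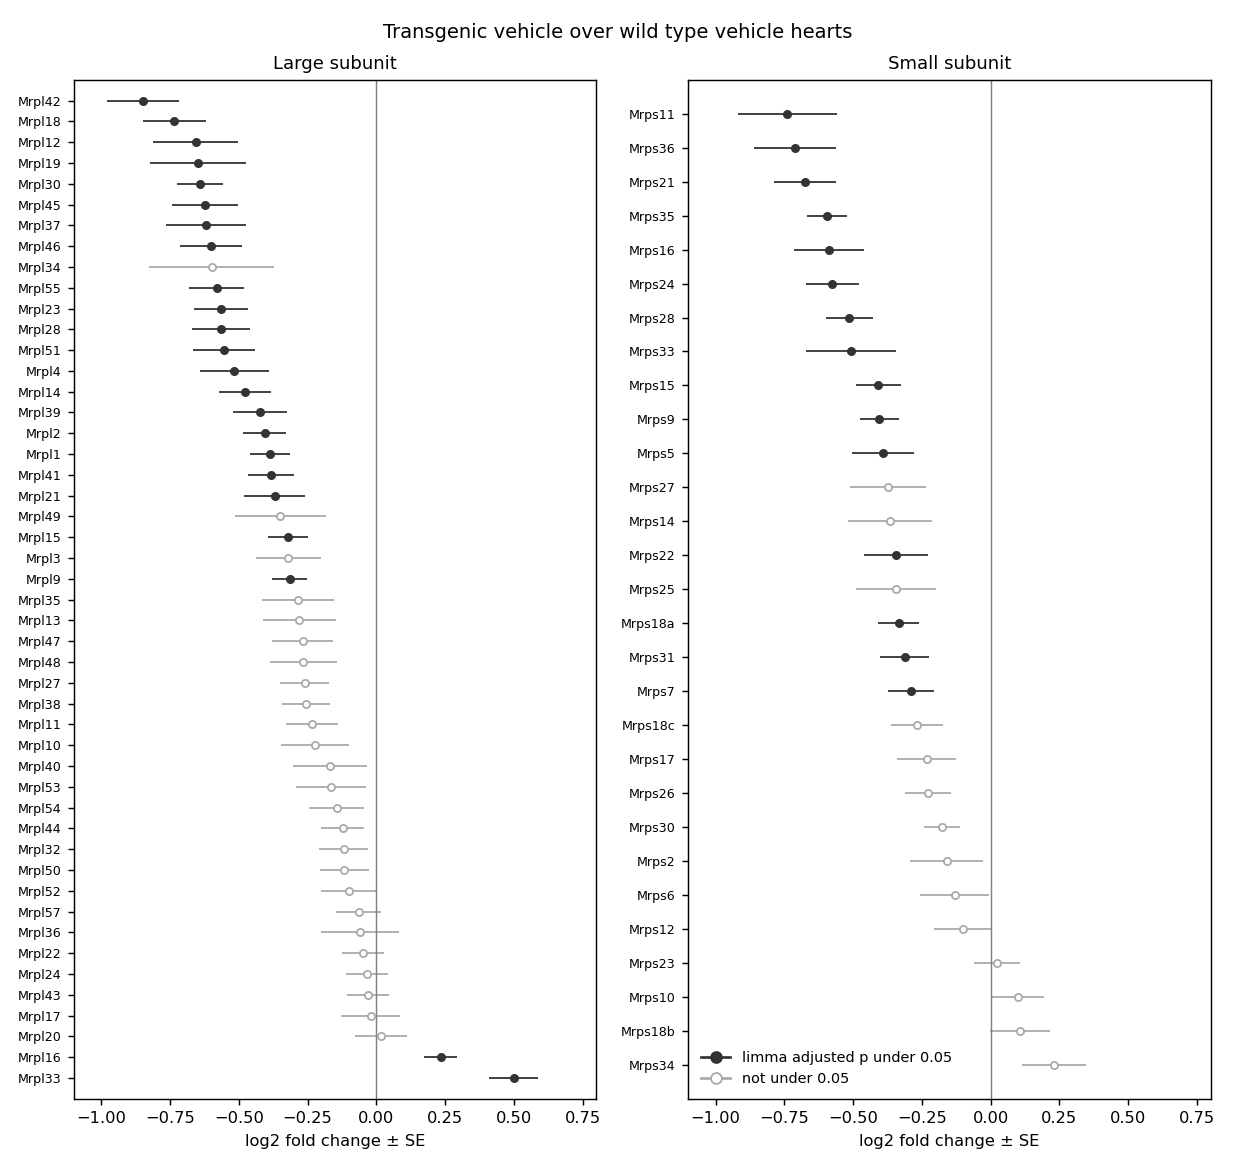
Log2 fold change of each of the 77 members in transgenic vehicle over wild type vehicle hearts, with its SE as a horizontal line; filled points had a limma adjusted p under 0.05. Values ran from -0.85 (Mrpl42) to 0.50 (Mrpl33) in the large subunit and from -0.74 (Mrps11) to 0.23 (Mrps34) in the small subunit.

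In the small subunit Mrps11, the counterpart of bacterial S11 on the platform, fell most (chromosome 7, positions 78783119 to 78792989). It was at 16.1, 13.9 and 8.77 FPKM in transgenic vehicle hearts, against 25.2, 20.2, 21.5 and 23.2 FPKM in wild type hearts. The groups did not overlap. In log2 terms the difference was -0.74 ± 0.18 (SE), with limma adjusted p = 0.014. Mrps11 lies head to head with Mrpl46 of the central protuberance, with which it shares 173 exon bases on opposite strands, and libraries without strand cannot assign reads there. Mrpl46 fell by 0.60 on the log2 scale, with limma adjusted p = 0.0047.

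Mrps21, the counterpart of bacterial S21, had the highest level of the small subunit in wild type hearts (chromosome 3, positions 95862634 to 95871519). It was at 242, 209.6 and 148 FPKM in transgenic vehicle hearts, against 369, 370.4, 288 and 296 FPKM in wild type hearts. All transgenic hearts were below all wild type hearts, and the log2 difference was -0.68 ± 0.11 (SE), with limma adjusted p = 0.0029. Mrps35, a small subunit protein of mitochondria only, had the smallest adjusted p of all members (chromosome 6, positions 147042764 to 147070903). It was at 59.9, 46.8 and 41.0 FPKM in transgenic vehicle hearts, against 92.1, 84.4, 68.4 and 68.1 FPKM in wild type hearts. The groups did not overlap. Mrps35 differed by -0.59 ± 0.07 on the log2 scale (SE), with limma adjusted p = 0.00061.

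Mrps36 was at 82.7, 67.1 and 42.9 FPKM in transgenic vehicle hearts, against 122, 122, 88.3 and 103 FPKM in wild type hearts. On the log2 scale the difference was -0.71 ± 0.15 (SE), with limma adjusted p = 0.0074. Mrps36 carries the name of a ribosomal protein, but in mammals its product is a subunit of the oxoglutarate dehydrogenase complex of the citrate cycle. Mrps16, the counterpart of bacterial S16, fell by 0.59 on the log2 scale, with limma adjusted p = 0.0086, and lost its call without transgenic vehicle heart 1. Mrps23, a small subunit protein found in mitochondria only, was among the members that were not called. It was at 154, 156 and 147 FPKM in transgenic vehicle hearts, against 152, 153, 148 and 154 FPKM in wild type hearts, a log2 difference of 0.02 with a 95% interval from -0.17 to 0.21.

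The Mrps18 proteins are 3 paralogs that occupy different places in the ribosome, Mrps18a in the large subunit. Mrps18a was at 59.4, 45.5 and 51.8 FPKM in transgenic vehicle hearts, against 70.5, 70.5, 62.5 and 66.5 FPKM in wild type hearts, and fell by 0.34 on the log2 scale with limma adjusted p = 0.0099. Mrps18b differed by 0.11 ± 0.11 (SE) and Mrps18c by -0.27 ± 0.09 (SE), with limma adjusted p = 0.48 and 0.055. The difference between the paralogs was not tested. With Mrps18a and Mrps30 counted in the large subunit, where their products sit in mammals, 22 of 50 large subunit members were called lower, and 13 of the 26 small subunit members that remain without Mrps36.

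Among the 4 members whose human counterparts are known from inherited cardiomyopathy, 1 was called lower. Mrps22, a small subunit protein of mitochondria only, was at 15.0, 16.7 and 11.6 FPKM in transgenic vehicle hearts, against 19.3, 19.3, 16.9 and 19.2 FPKM in wild type hearts. Its log2 value differed by -0.34 ± 0.12 (SE), at the edge of the threshold with limma adjusted p = 0.0498, and the call held in 6 of 23 alternatives. It was lost with pseudocounts of 0.1 and 0.5, and on leaving out any 1 heart except transgenic vehicle heart 2. Mrpl3, which lies close to the catalytic centre, Mrpl44, a protein with a nuclease-like fold, and Mrps14, of the small subunit head, had log2 fold changes of -0.32, -0.12 and -0.37, with limma adjusted p = 0.067, 0.26 and 0.095. The members with the lowest levels after Mrpl19 were Mrpl35 (7.47 ± 1.65 FPKM in transgenic vehicle and 9.31 ± 0.548 FPKM in wild type hearts) and, in the small subunit, Mrps2 (15.1 ± 3.35 FPKM in transgenic vehicle and 17.1 ± 1.7 FPKM in wild type hearts; SD, n = 3 and 4). Neither of these was called.

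**Figure D3:**
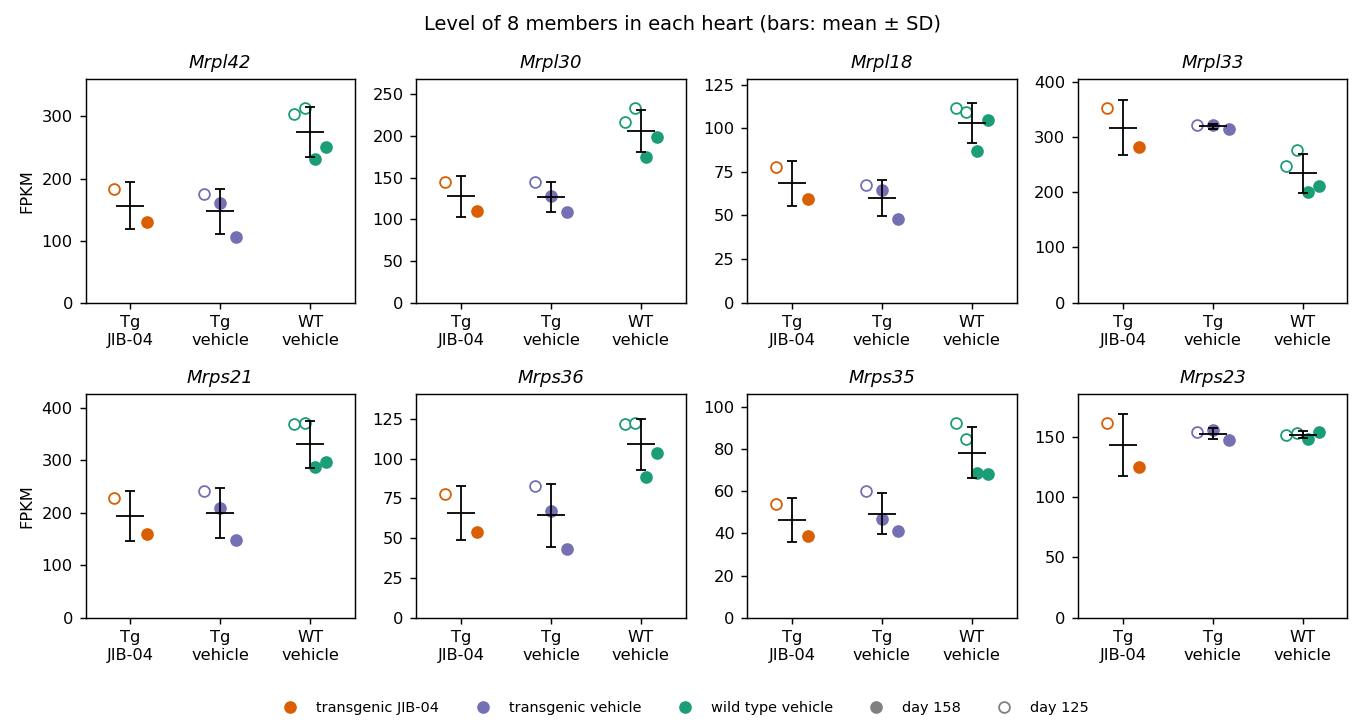
FPKM of 8 members in each heart, by group; bars are mean ± SD over 2 JIB-04, 3 transgenic vehicle and 4 wild type hearts, and open points are hearts of day 125. Mrpl33 was higher in transgenic vehicle than in wild type hearts, Mrps23 lay between 147 and 156 FPKM in both, and the other 6 were lower.

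The second question was whether JIB-04 altered the members in transgenic hearts. The summed level of the large subunit was 2974 and 2336 FPKM in JIB-04 hearts, against 2847, 2688 and 2184 FPKM in transgenic vehicle hearts. That of the small subunit was 1647 and 1234 FPKM in JIB-04 hearts, against 1612, 1494 and 1222 FPKM in transgenic vehicle hearts. The groups overlapped in both subunits. By limma, 0 of 77 members were called, with 1 large and 0 small subunit members at an unadjusted p under 0.05, and 0.00741% of all genes were called. The median log2 fold change was 0.01 in the large and -0.03 in the small subunit, beside -0.01 over all genes. Single members ranged from -0.24 to 0.57, and the 95% interval of a member reached a median of 0.28 to either side of its value, so changes of that size were not resolved. Without JIB-04 heart 2 and transgenic vehicle heart 3, which left 1 JIB-04 heart, the median over the members was 0.01. The sign of this median depended on single hearts. Without transgenic vehicle heart 3 alone it was -0.071, beside -0.015 over all genes, and 65 of 77 members were below 0. Without transgenic vehicle heart 2 it was 0.07, beside 0.0085 over all genes, and 23 of 77 were below 0. Without JIB-04 heart 2 alone, which again left 1 JIB-04 heart, it was 0.068, beside 0.0244 over all genes.

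Mrpl19 had the smallest unadjusted p. It was at 7.0 and 7.97 FPKM in JIB-04 hearts, against 5.07, 6.09 and 3.53 FPKM in transgenic vehicle hearts. Both JIB-04 hearts were above all transgenic vehicle hearts, and the log2 fold change was 0.57 (95% interval 0.09 to 1.05, limma adjusted p = 0.99). Mrps22 was at 18.3 and 16.9 FPKM in JIB-04 hearts, against 15.0, 16.7 and 11.6 FPKM in transgenic vehicle hearts, with a log2 fold change of 0.27 (95% interval -0.05 to 0.59). Mrpl39, a large subunit protein of mitochondria only, was at 20.1 and 15.9 FPKM in JIB-04 hearts, against 24.6, 19.6 and 18.7 FPKM in transgenic vehicle hearts. Its log2 fold change was -0.24 (95% interval -0.51 to 0.03). For Mrps18a it was -0.19 (95% interval -0.39 to 0.02).

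Against wild type, JIB-04 hearts had 19 large subunit members called lower and 1 higher, and 14 small subunit members called lower and 0 higher, with 0 higher also at an unadjusted p under 0.05 in limma. Over all genes 14.8% were called lower and 17.4% higher. The median over the members was -0.29, beside 0.04 over all genes. This comparison shares the wild type hearts with the one of transgenic vehicle hearts. Mrpl42 was at 183 and 129 FPKM in JIB-04 hearts, against 304, 313, 232 and 250.1 FPKM in wild type hearts, a log2 fold change of -0.82 (limma adjusted p = 0.0043). Mrps21 was at 227 and 160.1 FPKM in JIB-04 hearts and had a log2 fold change of -0.78 (limma adjusted p = 0.0029). For Mrpl33, at 352 and 282 FPKM in JIB-04 hearts, it was 0.44 (limma adjusted p = 0.011).

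Further members with large falls in JIB-04 against wild type hearts were Mrps24, the counterpart of bacterial S3, Mrpl51, found in mitochondria only, and Mrpl14, on which the assembly factor Malsu1 binds. Mrps24 was at 54.3 and 36.2 FPKM in JIB-04 hearts, against 79.4, 83.3, 68.0 and 68.0 FPKM in wild type hearts, and fell by 0.73 on the log2 scale with limma adjusted p = 0.0016. Its exons share 226 bases with Urgcp, a protein-coding gene on the same strand. Mrpl51 fell by 0.70 and Mrpl14 by 0.69, with limma adjusted p = 0.0043 and 0.0020. The calls rested on few hearts. Without JIB-04 heart 1, 20 members were called lower, 10 in the large subunit, with 8.97% of all genes. Without JIB-04 heart 2, from day 158, 2 large and 4 small subunit members were called lower, 7.79% of the members and near the 5.57% of all genes. Without both it and transgenic vehicle heart 3, 12 and 6 were called lower, with 9.81% of all genes.

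The third question concerned the day. No single member was called different between day 158 and day 125. In a fit of all groups, 75 of 77 members were below 0, as were 56.0% of all genes, and the median log2 fold change of day 158 over day 125 was -0.25 in both subunits, beside -0.03 over all genes. By limma 0 members were called, with 31 large and 19 small subunit members at an unadjusted p under 0.05, 64.9% of the members beside 18.8% of all genes. By adjusted p 0.222% of all genes were called lower and 0.156% higher. The mean was lower at day 158 in all 3 groups for 41 large and 27 small subunit members, 68 of 77, as in 26.3% of all genes. The medians over the large subunit were -0.31 in JIB-04, -0.25 in transgenic vehicle and -0.22 in wild type hearts, and over the small subunit -0.37, -0.21 and -0.23 in the same order.

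Mrps35 had the smallest p for the day. Its level at day 158 was 38.8 FPKM in the JIB-04 heart, 46.8 and 41.0 FPKM in transgenic vehicle hearts and 68.4 and 68.1 FPKM in wild type hearts. At day 125 it was 53.8 FPKM in the JIB-04 heart, 59.9 FPKM in the transgenic vehicle heart and 92.1 and 84.4 FPKM in wild type hearts. Within every group the day 158 hearts were the lower ones. The day difference was -0.41 ± 0.06 (SE, log2), with limma adjusted p = 0.051. For Mrps21 it was -0.41 ± 0.10 (SE), for Mrpl15, the counterpart of bacterial L15, -0.33 ± 0.06 and for Mrpl22 -0.33 ± 0.07, with limma adjusted p = 0.094, 0.076 and 0.077.

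Short transcripts as a whole were lower at day 158. With 12856 tested genes (95.3%) placed in 5 equal bins by annotated exon length, the median log2 fold change over all genes was -0.17 in the shortest bin and, in order of length, -0.07, -0.01, 0.03 and 0.06 in the others. Members are short, with a median of 2255 exon bases against 4117 over the tested genes, and 31 of them fell in the shortest bin and 6 in the longest. Their medians in the 5 bins were -0.28, -0.24, -0.23, -0.21 and -0.25. The part of transcript length in the day difference of the members was not tested. JIB-04 heart 2 and transgenic vehicle heart 3, the hearts with the largest mitochondrial shares, were both from day 158. Without them 71 of 77 members were below 0, the median was -0.19 and 0 were called. Without transgenic vehicle heart 2, 8 large and 4 small subunit members were called lower, with 1.64% of all genes. Without transgenic vehicle heart 3, 1 of each was called lower, with 0.552% of all genes.

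**Figure D4:**
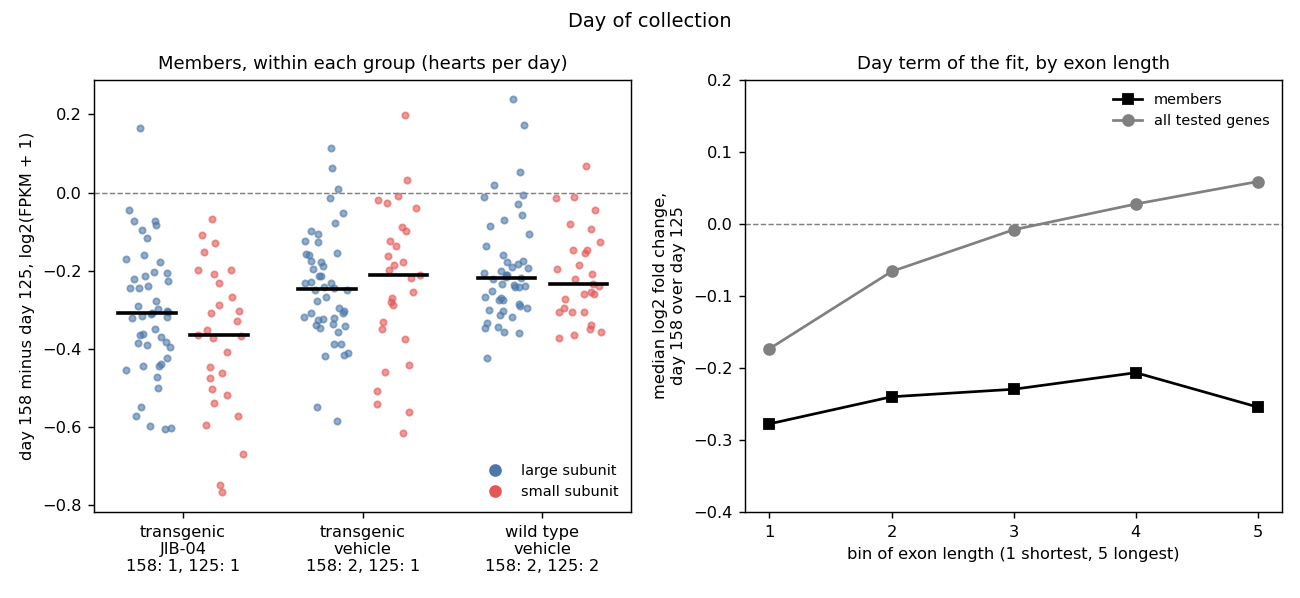
Left, difference of the mean log2(FPKM + 1) between day 158 and day 125 within each group, for each member (points) with medians (bars). Right, median log2 fold change of day 158 over day 125 for the members and for all tested genes in 5 bins of exon length, where all genes ran from -0.17 to 0.06 and the members stayed between -0.28 and -0.21.

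The effect of the transgene was read on each day as well, from group by day means with the spread taken from all hearts. The fit of the day 158 hearts alone, given above, called fewer members lower, a share near that of all genes. At day 158 transgenic vehicle hearts (n = 2) had 9 large and 6 small subunit members called lower than in wild type hearts (n = 2), with 7.3% of all genes called lower, and Mrpl33 was the 1 member called higher (0.63 ± 0.10 SE, limma adjusted p = 0.013), with 9.39% of all genes called higher. At day 125, with a single transgenic vehicle heart and 2 wild type hearts, 1 member was called lower and 3.98% of all genes. The single heart was assumed there to vary like those of the other groups. That member was Mrps24, which shares exon bases with Urgcp, at 52.2 FPKM in the transgenic vehicle heart and 79.4 and 83.3 FPKM in wild type hearts. The median over the members was -0.36 at day 158 and -0.31 at day 125. The difference between the days was called in 0 members by limma (1 at an unadjusted p under 0.05) and in 0.00741% of all genes. For the effect of JIB-04 it was called in 0 members (3 at an unadjusted p under 0.05) and in 0.0% of all genes, under the same assumption, since each day had 1 JIB-04 heart.

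Other genes of mitochondrial translation were read beside the members. A list of mitochondrial ribosomal proteins under other names also included Oxa1l, a membrane insertase rather than a ribosomal protein. Of the 7 genes tested from this list, 5 were called lower in transgenic vehicle hearts and 0 higher, with a median of -0.40. Ptcd3, a small subunit protein, was at 33.9 ± 7.09 FPKM in transgenic vehicle hearts (SD, n = 3) and 49.4 ± 4.5 FPKM in wild type hearts (SD, n = 4), and Gadd45gip1, a large subunit protein, at 15.98 ± 2.92 and 24.0 ± 2.82 FPKM in the same groups. Of 14 translation factors 6 were called lower and 0 higher. Tufm, the elongation factor that brings aminoacyl-tRNA, fell by 0.86, and Lrpprc, which stabilises mitochondrial mRNAs, by 0.85 on the log2 scale (limma adjusted p = 0.0083 and 0.00033). Of 26 assembly factors 7 were called lower, among them Rbfa, which matures the small subunit, and Rpusd4, a pseudouridine synthase, by 0.64 and 0.55. The 1 called higher was Ddx28, a helicase of large subunit assembly, at 6.6 ± 0.513 FPKM in transgenic vehicle hearts (SD, n = 3) and 5.11 ± 0.596 FPKM in wild type hearts (SD, n = 4).

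The RNAs of the mitochondrial ribosome are copied from mitochondrial DNA. mt-Rnr1, the small subunit RNA, was at 676 ± 121 FPKM in transgenic vehicle hearts (SD, n = 3) and 1744 ± 257 FPKM in wild type hearts (SD, n = 4). mt-Rnr2, the large subunit RNA, was at 1037 ± 128 FPKM in transgenic vehicle hearts and 1981 ± 245 FPKM in wild type hearts. Both were called lower, by 1.34 and 0.94 on the log2 scale with limma adjusted p = 0.00055 and 0.00092. The libraries were made with an mRNA kit, which takes up ribosomal RNA only in part, so these values do not give the amount of ribosomes.

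Among 7 genes of mitochondrial DNA transcription, 2 were called lower, Mterf2, a termination factor family member, and Tfam, which packages mitochondrial DNA and starts its transcription, by 0.76 and 0.43. Of 9 nuclear regulators of mitochondrial genes, Esrra, a nuclear receptor, was called lower by 0.55, and Myc was called higher, at 7.07 ± 2.14 FPKM in transgenic vehicle hearts (SD, n = 3) and 1.5 ± 0.702 FPKM in wild type hearts (SD, n = 4). Nrf1, Gabpa and Yy1, whose recognition letters are described with the promoters, had log2 fold changes of 0.00, -0.11 and 0.18, none of them called (limma adjusted p = 1.0, 0.28 and 0.13).

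Complex I joins nuclear subunits with subunits made on the mitochondrial ribosome. Of its 36 listed nuclear subunits 35 were called lower and 0 higher, with a median of -0.59, and of 16 citrate cycle enzymes 14 were called lower, with a median of -0.57. Ndufv3 was at 347 ± 76.97 FPKM in transgenic vehicle hearts (SD, n = 3) and 641 ± 81.9 FPKM in wild type hearts (SD, n = 4), and citrate synthase (Cs) at 238 ± 22.4 and 463 ± 19.7 FPKM in the same groups. Of 74 proteins of the cytosolic ribosome 5 were called lower and 2 higher, with a median of -0.05. Rpl3l, the striated muscle paralog of Rpl3, fell by 2.47, and Rpl3 rose by 0.93 on the log2 scale. For the day the order was another. The median over cytosolic ribosomal proteins was -0.24 and over complex I -0.33, close to the -0.25 of the members, while citrate cycle enzymes had a median of -0.09. No test was made of these lists against each other.

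**Figure D5:**
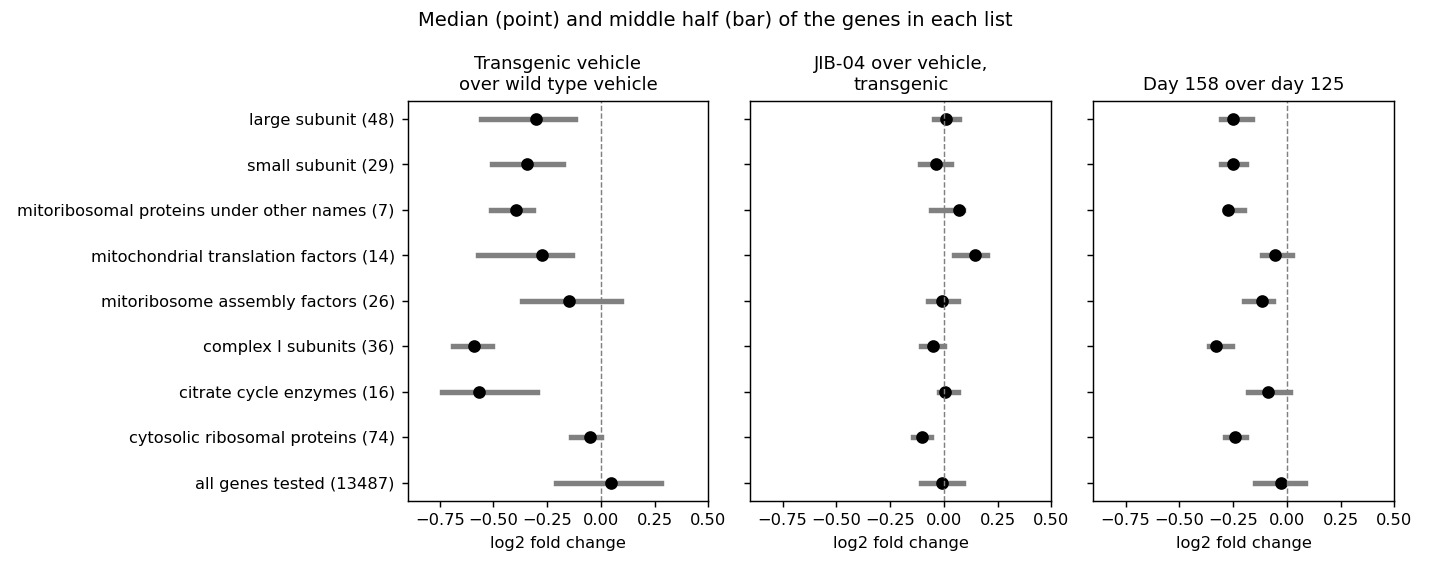
Median (points) and range from the lower to the upper quartile (bars) of the log2 fold changes of the genes in each list, for transgenic vehicle over wild type vehicle hearts, JIB-04 over vehicle in transgenic hearts, and day 158 over day 125; the number of genes tested is in brackets. In the first comparison the medians were -0.30 and -0.34 for the subunits, -0.59 for complex I, -0.05 for cytosolic ribosomal proteins and 0.05 for all genes.

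Markers of cell types differed between the groups too. The sum over 10 cardiomyocyte markers was 18523 to 20761 FPKM in JIB-04 hearts, 19030 to 21692 FPKM in transgenic vehicle hearts and 23533 to 28161 FPKM in wild type hearts, and 5 of the 10 were called lower in transgenic vehicle hearts. Over 8 fibroblast markers the sum was 712 to 717 FPKM in JIB-04 hearts, 641 to 677 FPKM in transgenic vehicle hearts and 291 to 369 FPKM in wild type hearts, and 4 of the 8 were called higher. Transgenic vehicle heart 3 stood apart within its group. Its median log2 level of these markers was 4.19, against 5.42 and 5.80 in transgenic vehicle hearts 1 and 2, and wild type hearts lay between 3.94 and 4.25. Its sum over the same markers was not lower, at 676.9 FPKM against 641.5 and 676.1 FPKM in those hearts. Its sum over smooth muscle and pericyte markers was 285 FPKM, against 678 and 652 FPKM in those 2 hearts, and wild type hearts lay between 259 and 322 FPKM. The median log2 level of these 8 markers was not lower in it, at 3.77 against 3.40 and 3.73 in those 2 hearts. Of the 8, 4 were called lower and 2 higher in transgenic vehicle than in wild type hearts. Of 7 endothelial markers 5 were called lower and 1 higher. No cardiomyocyte, fibroblast or endothelial marker was listed at 0. The part of cell composition in the lower member levels was not tested.

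The members are spread over 17 chromosomes. Exons of 32 of the 77 share bases with another annotated gene, in 27 with a gene on the opposite strand, and 4 pseudogenes of members are listed apart. Of the 45 members that share no exon bases 25 were called lower and 1 higher, with a median of -0.37. Of the 32 that share some, 11 were called lower and 1 higher, with a median of -0.27. Across the 77 members the log2 fold change had a Spearman correlation of -0.18 with the mean log2 level and of 0.07 with exon length, given as a description, since all values come from the same 9 libraries.

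Promoter windows were found for 68 of the 77 members, and each was searched on both strands for 5 sets of letters. CCGGAAG, the core bound by ETS factors such as GABP, was in 36.8% of these members, against 19.8% of tested genes and 9.93% of all genes with a window. AAGATGGCG, a core of YY1, was in 11.8% of members, against 3.66% and 1.64%, and GCATGCGC, a core of NRF1, in 11.8%, against 5.94% and 3.05%. The MYC E-box CACGTG was in 7.35% of members, against 11.8% and 8.09%, and TATAAA in 7.35%, against 8.94% and 15.7%. Among the printed windows, Mrpl42 has AAGATGGCG 27 bases after the start, Mrps11 has it on the other strand 108 bases before the start, and Mrps21 has CCGGAAG on the other strand 18 bases after it. Mrpl33 has CCGGAAG 3 bases and GCATGCGC, on the other strand, 12 bases before the start. A match is a description of letters, not a bound site.

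The 8 members with AAGATGGCG had a median log2 fold change of -0.47 in transgenic vehicle over wild type hearts, with 5 called lower, and the 60 without it -0.30, with 26 called lower. For the 8 with GCATGCGC it was -0.08, with 2 called lower, and for the 60 without it -0.34, with 29 called lower. For the 25 with CCGGAAG it was -0.27, with 8 called lower, and for the 43 without it -0.35, with 23 called lower. These differences were not tested. The Mrps11 window overlaps that of Mrpl46 at chr7:78783040-78783339, which runs on the opposite strand.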

How the data were processed

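Poly(A) RNA sequencing measured 9 mouse hearts. The deposited values are log2 of FPKM per gene, per the file headers, 1 file per heart. RNA was extracted in Trizol, and the mRNA library kit was non-directional, per the labels' protocols. STAR 2.7.1a, Picard, GATK 4.1.2, Cufflinks 2.2.1 and the GRCm38 build appear in the submitters' processing notes, with no role given here. The lowest deposited log2 value was exactly 0, so a constant of 1 was taken to have been added to FPKM, which the sources used here do not state. Raw read numbers were not used here, so depth is known only as a ratio between hearts and limits the precision of low values.

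The 13487 genes that reached 1 FPKM in 2 or more hearts were fitted with limma 3.58.1 in R 4.3.3 on log2(FPKM + 1), over all 9 hearts, with group means, a term for day and a variance trend. Group by day means were fitted for the values on each day. P-values were adjusted over all 13487 genes by Benjamini-Hochberg, at 0.05. The fit was also run on simulated data with independent noise for each gene and no shift shared by the genes of a heart. That run cannot vouch for counts of members that move together in single hearts. Members and gene lists were chosen with earlier results of these data known. Members named in the text were, for each subunit, the 2 with the highest and the 2 with the lowest level, up to 5 called members with the largest fall and 5 with the largest rise per comparison (the 2 smallest p-values where fewer than 2 were called), and the stalk, Mrps18 and cardiomyopathy members. From other lists up to 2 called genes were named. Mrpl46, Ddx28, Nrf1, Gabpa and Yy1 were added after their values were seen. Exon overlaps and lengths come from GENCODE M21 and promoters from RefSeq, GRCm38.p6. Alternatives changed the pseudocount, filter, scaling, day term, replicate block, variance model and the hearts used.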

Additional observations from a re-analysis of the deposited data

Results flagged for a closer look

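In wild type hearts (n = 4), the gap of the farthest heart to its nearest neighbour, as a share of the whole range, was above Dixon's 95% critical value for 4 samples in 3 of the 30 members named by the rules for the text. Chance alone gives about 1 in 20 groups above that value. Mrpl19 was high in wild type heart 3 (share 0.860), at 10.4 FPKM against 7.06 to 7.46 FPKM in the other 3. Mrpl39 was high in the same heart (share 0.885), at 30.4 FPKM against 28.2 to 28.4 FPKM. Mrps22 was low in it (share 0.968), at 16.9 FPKM against 19.2 to 19.3 FPKM. Over all 77 members the value was passed in 4.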

How the results depend on the processing

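The median of the members lay below that of all genes in transgenic vehicle against wild type hearts under every alternative run, by 0.29 to 0.43 on the log2 scale. Scaling a heart by a constant moves members and all genes nearly alike, so such scalings could hardly alter this difference and do not test it. The members called lower were 36 in the main fit and 5 at equal totals. Over 2670 values of named members under an alternative, 699 of 828 calls were kept and 129 lost, 32 of 1842 values without a call gained one, and 0 called values reversed. Of the 38 calls, 2 (Mrpl33 and Mrps35) held in all alternatives, and 7 held at equal totals. Levels set on 2 to 4 hearts a group leave small changes unresolved, and the cause of the moves given here was not tested.

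In transgenic vehicle against wild type hearts, large subunit members called lower (21) became 3 at equal totals and 3 with day 158 only, those called higher (2) became 1 with no term for day and 1 with day 158 only, small subunit members called lower (15) became 2 at equal totals and 1 with day 158 only, and 2 were called higher at equal totals (0). Leaving out 1 heart gave 19 to 30, 1 to 2, 9 to 18 and 0 to 1 in the same order, the single small subunit call higher coming without wild type heart 4. Over all genes 10.3% to 16.4% were then called lower and 14.7% to 21.0% higher. In JIB-04 against wild type hearts, large subunit members called lower (19) became 6 at equal totals, 3 with day 158 only and 12 without the 2 hearts with the largest mitochondrial share. Those called higher (1) became 2 with no filter, 2 when scaled without mitochondrial and the 20 highest genes, and 0 with no term for day or day 158 only. Small subunit members called lower (14) became 4 at equal totals, 9 with no term for day, 0 with day 158 only and 6 without those 2 hearts. Leaving out 1 heart gave 2 to 25, 0 to 1 and 4 to 18 in the same order. Over both subunits 13.0% were called lower in this comparison at equal totals, beside 7.93% of all genes, and 28.6% with no term for day, beside 12.4%. Day 158 only, and leaving out the 2 hearts with the largest mitochondrial share, each left 1 JIB-04 heart. The median over the members was -0.34 in the first, beside 0.02 over all genes, and -0.21 in the second, beside 0.07. For the day, a filter of 5 FPKM called 1 small subunit member (0), and leaving out 1 heart called 0 to 8 large and 0 to 4 small subunit members.

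Correlations of deviations between hearts with the same replicate number ran from -0.186 to 0.432. They cannot decide whether the numbers pair the hearts. The deviations of the 2 JIB-04 hearts mirror each other, and the numbers go partly with the day. A fit with the replicate number as a block called 13 large subunit members lower and 1 higher and 5 small subunit members lower in transgenic vehicle against wild type hearts, and 6, 0 and 3 in JIB-04 against wild type hearts. In the first comparison 23.4% of members were lower beside 7.96% of all genes, and 1.3% higher beside 10.3%. In the second 11.7% were lower beside 5.44%, and 0.0% higher beside 5.99%.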
